A study of Mus musculus with 15 samples.

Results

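The transcriptome of the brain of wild-type mice given saline was described from 5 libraries (WT_PBS 1 to WT_PBS 5) of the 15 in the study. The libraries were chosen by their labels alone, as wild type and phosphate-buffered saline (PBS), and no group was compared with another. The mice had received PBS, the vehicle of the study's other treatment, by intraperitoneal injection, 2 per week over 4 weeks, the first at an age of 4 weeks. The other 10 libraries, from Tbx1 heterozygotes given PBS or vitamin B12, were not used. The labels give no strain for these wild types, and they name the tissue both as whole brain and as brain hemisphere. Each library carries its own animal number, but whether each came from a mouse of its own is not spelled out. The spread given throughout is the spread between these 5 libraries, which may be partly technical.

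RNA was read from its polyadenylated 3′ end (QuantSeq), so that in principle 1 transcript gives 1 read whatever its length. Levels are given as CPM, the reads of a gene divided by the total of its library and multiplied by 1000000, and values are listed in the order WT_PBS 1 to WT_PBS 5 unless a library is named. The brain is built mainly of neurons, which signal at synapses, and of glia. Among the glia, astrocytes clear transmitter and supply neurons with metabolites, oligodendrocytes wrap axons in myelin, and microglia are the resident immune cells. Blood vessels, meninges and choroid plexus, which secretes cerebrospinal fluid, make up a small part of the tissue. Each of these cell types is known by genes that it alone, or it mostly, expresses. In such bulk tissue a lower level of a marker can come from fewer cells of its type or from less RNA per cell, and these cannot be told apart. Snap25, Slc1a2, Cldn5 and C1qa, which mark neurons, astrocytes, endothelium and microglia, each had reads in every library. Reads in every library do not by themselves identify a tissue, and the levels are given below.

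Total counts were 2593316, 1866380, 1707033, 2478401 and 2483561, so that 3 reads, taken as the detection floor, corresponded to 1.16, 1.61, 1.76, 1.21 and 1.21 CPM. The table held 30386 genes, of which 18725 had at least 1 read and 11661 had none in any of the 5 libraries. With 11128691 reads pooled, a gene without a read could still have a level of up to 0.270 CPM, counting error only. No pair of libraries agreed within sampling noise: chi-square per degree of freedom over the 10 pairs was 5.56 to 9.13, and the median gene of at least 50 CPM differed 1.13-fold to 1.203-fold between them. WT_PBS 3 stood apart. Of 3458 genes with a mean of at least 50 CPM, 29 lay more than 2-fold from the mean of the other libraries in WT_PBS 3, against 0, 14, 6 and 2 in WT_PBS 1, 2, 4 and 5. Results that rest on WT_PBS 3 are given with and without it. Below, the members of a list that were highest or lowest in a given library are counted. The share of all genes that were highest or lowest in that library was not computed. Such a count therefore cannot tell a trait of the list from one of the whole library.

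A small number of genes took up much of the sequence. The 63 genes above 1000 CPM held 31.1% of the reads and the 1740 genes at 100 to 1000 CPM held 41.8%. The 6909 genes at 10 to 100 CPM held 24.7%, the 5350 genes at 1 to 10 CPM 2.29% and the 4663 genes under 1 CPM 0.173%. A floor of 3 reads in every library was reached by 11611 genes. The highest gene alone, Gm42418, took 14.9, 11.9, 10.7, 10.6 and 11.1% of the counts. It is annotated as a long non-coding RNA at chr17:39846958-39848788 (GRCm38, plus strand), and WT_PBS 1 was highest. Whether its reads come from such a transcript was not tested. The 13 mitochondrially encoded genes of the list together took 6.32, 9.58, 6.49, 7.06 and 6.99%, with WT_PBS 2 above the other 4 libraries. Without Gm42418 and the mitochondrial genes in the denominator every other level rises.

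The 15 genes of highest mean level fell into few functions. After Gm42418 came 4 mitochondrial genes, mt-Nd4 at 31383 ± 7592 CPM (SD, n = 5, as for every mean below), mt-Nd2 at 16703 ± 3315, mt-Nd1 at 10456 ± 1779.5 and mt-Cytb at 9328 ± 2149. The first 3 encode subunits of respiratory complex I and the last is cytochrome b of complex III. Nrgn, the calmodulin-binding postsynaptic protein neurogranin of forebrain neurons, was the highest nuclear coding gene at 6668, 7229.5, 7159, 8394 and 6042 CPM. Camk2n1, an inhibitor of the synaptic kinase CaMKII, followed closely at 7026, 7421, 6156, 7195 and 7042 CPM. The ranges of these 2 genes overlapped, and the coefficient of variation (CV, the SD as a percentage of the mean) was 12.2% for Nrgn and 6.9% for Camk2n1.

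Calm2, which encodes the calcium sensor calmodulin, stood at 3249, 3117, 2162, 2401 and 2874 CPM. The long non-coding RNAs Meg3 and Malat1 reached means of 5423 ± 3582 and 5369 ± 2695 CPM, but WT_PBS 3 was far above the others in both. Sparcl1, a matricellular protein secreted by astrocytes, stood at 3987, 4732, 3846, 4227 and 5892 CPM, highest in WT_PBS 5. Actb (cytoplasmic beta-actin) had 3444 ± 414 CPM and Hsp90ab1 (a cytosolic chaperone) 3249 ± 378 CPM. Lrrc17, at chr5:21543559-21575904, encodes a secreted leucine-rich repeat protein and ranked 11th, at 4658, 5129, 5275, 4498 and 3319 CPM, with WT_PBS 5 lowest.

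Neuronal genes were abundant in every library. Snap25 (chr2:136713453-136782428, plus strand), a membrane-fusion protein of synaptic vesicle release, had 660.2, 627, 598, 806 and 639 CPM, with WT_PBS 4 above the other 4 libraries. All 20 neuron markers of the list reached the floor in every library, and their summed level was 17354, 17743, 18731, 21162 and 17480.1 CPM. Nrgn made up 38.4% of it. Without Nrgn the sum was 10685, 10513, 11572, 12768 and 11438 CPM, and WT_PBS 4 was again highest and 11 of the 20 members peaked there. Behind Nrgn the list was led by Syt1, the calcium sensor of vesicle release, at 2157 ± 261 CPM, and Map2, a dendritic microtubule protein, at 1019.6 ± 88.3 CPM.

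Glutamatergic and GABAergic neurons were marked by their transporters and enzymes. Slc17a7, which loads glutamate into vesicles in cortex, hippocampus and cerebellum, stood at 602, 560.4, 612, 666 and 537 CPM. Slc17a6, which does so in thalamus, hypothalamus and brainstem, stood at 79.8, 93.2, 64.4, 97.2 and 114 CPM, and Slc17a8 at 2.7, 0, 2.93, 1.21 and 4.43 CPM, both looked up after the values had been seen. The ratio of Slc17a7 to Slc17a6 was 7.55, 6.01, 9.5, 6.85 and 4.69, highest in WT_PBS 3 and lowest in WT_PBS 5. The kinase subunit Camk2a led the glutamatergic list with 2496 ± 249 CPM and Grin2a, an NMDA receptor subunit, had 171 ± 21.1 CPM.

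The GABA-synthesising enzymes Gad1 and Gad2, looked up likewise, had 87.5, 82.5, 92.6, 82.3 and 99.5 CPM and 86.8, 111, 96.1, 98 and 111 CPM, close to each other, and the vesicular GABA transporter Slc32a1, also looked up, had 74.8, 86.3, 86.1, 68.6 and 67.2 CPM. Their ranges overlapped. Summed, Gad1 and Gad2 were 0.256, 0.297, 0.279, 0.236 and 0.323 times the sum of Slc17a7 and Slc17a6. The GABAergic list varied least among the neuronal lists, with 1434, 1591, 1513, 1497 and 1587 CPM (CV 4.33%), and was led by the calcium buffer Pvalb at 369 ± 62 CPM, the potassium channel Kcnc1 at 254 ± 29.3 CPM and the peptide Sst at 147 ± 16.9 CPM.

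Several enzymes and transporters of modulatory transmitters had low levels. Th, the first enzyme of catecholamine synthesis, stood at 13.5, 9.11, 18.7, 19.4 and 21.3 CPM and the dopamine transporter Slc6a3, looked up after the values had been seen, at 1.93, 0.536, 4.1, 1.61 and 3.22 CPM. Chat, which makes acetylcholine, had 5.78, 3.75, 7.03, 5.65 and 5.23 CPM. Hdc, which makes histamine, had 5.78, 5.89, 11.7, 6.46 and 7.65 CPM. Tph2, the serotonin-making enzyme of the raphe, had 0, 1.07, 1.76, 1.21 and 2.01 CPM, and Dbh, which makes noradrenaline, had 2.7, 2.14, 2.34, 0.807 and 1.21 CPM. Tph2 rested on 13 reads in all and Dbh on 20, too few to tell the libraries apart. The serotonergic list of 4 genes summed to 2.7, 4.82, 12.9, 7.67 and 12.5 CPM and the noradrenergic list of 4 genes to 4.24, 8.04, 8.2, 1.61 and 4.03 CPM. The other lists were higher. The cholinergic list of 5 genes summed to 42.8, 31.1, 58.6, 45.2 and 74.1 CPM, of which Ache made up 65.8%. The dopaminergic list of 9 genes summed to 191, 225, 235, 191 and 262 CPM, led by Nr4a2 at 91.6 CPM on average.

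Astrocyte genes were as prominent as neuronal genes, although the sum of a list depends on the genes chosen for it. Slc1a2 (chr2:102658659-102790784, plus strand), the main glutamate transporter of astrocytes, had 2982, 2811, 2158, 2683 and 2419.5 CPM, lowest in WT_PBS 3. The ratio of Slc1a2 to Snap25 was 4.52, 4.48, 3.61, 3.33 and 3.78. All 22 astrocyte markers reached the floor everywhere and summed to 19529.8, 21159.7, 16943, 19516 and 23216 CPM. WT_PBS 5 was highest and WT_PBS 3 lowest, while 12 of 22 members peaked in WT_PBS 5 and 15 of 22 were lowest in WT_PBS 3. After Sparcl1 and Slc1a2 the lipid carrier Apoe led with 1871, 2247, 1999.96, 2164 and 2641 CPM. Gfap, an intermediate filament protein abundant in white-matter and surface astrocytes, and Aqp4, the water channel of astrocyte endfeet, were looked up after the values had been seen. Gfap had 104, 137, 105, 136 and 221 CPM and Aqp4 136, 151, 90.8, 119.8 and 179 CPM, both highest in WT_PBS 5.

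Myelin genes differed more between libraries than neuronal genes did in CV. The 20 oligodendrocyte markers summed to 6295, 9729, 5479, 6149.5 and 8318 CPM (CV 24.6%, against 8.58% for the neuron list). Mbp, a main protein of central myelin, had 1916, 3098, 1407, 1584 and 2138 CPM, and Mobp, another myelin protein, 872, 1342, 834, 814 and 1286 CPM. WT_PBS 2 was highest in both, WT_PBS 3 lowest in Mbp and WT_PBS 4 lowest in Mobp. Of the 20 members 10 peaked in WT_PBS 2 and 8 in WT_PBS 5, and none in WT_PBS 1 or WT_PBS 3. The oligodendrocyte precursor genes summed to 594, 578, 541, 593 and 588 CPM (CV 3.79%), of which the phosphatase Ptprz1 at 291 ± 33.2 CPM made up 50.3%. The single genes varied more than their sum, with a CV of 11.4% for Ptprz1, 21.2% for the lineage factor Olig1 (89.3 ± 19 CPM) and 29% for the lineage factor Sox10 (42.9 ± 12.4 CPM). Ptprz1 is also expressed by astrocytes.

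Microglia were a minor but uniformly detected component. C1qa (chr4:136895917-136898803, minus strand), a chain of the complement protein C1q, had 82.9, 85.2, 52.7, 87.6 and 103 CPM, lowest in WT_PBS 3 and highest in WT_PBS 5. The 20 microglial markers summed to 1244, 1120.3, 950.2, 1175 and 1355 CPM, of which the lysosomal protease Ctsd, expressed in many cells, made up 34.2%. The fractalkine receptor Cx3cr1 had 158 ± 20.8 CPM and the growth factor receptor Csf1r 107 ± 21.5 CPM. Csf1r shares exon positions with Hmgxb3 on the other strand and its value is uncertain without a stated strand setting. Of the 21 entries of the list, in which Itgam stands under 2 identifiers, 12 were lowest in WT_PBS 3 and none was highest there.

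The endothelial marker Cldn5 (chr16:18776847-18778262, plus strand), a tight-junction protein of the blood-brain barrier, was scarce. It had 2.31, 4.29, 9.37, 4.03 and 4.03 CPM, or 50 reads over all 5 libraries, and WT_PBS 3 was highest. Without WT_PBS 3 its mean was 3.67 CPM. Snap25 exceeded Cldn5 by 285, 146, 63.8, 199.7 and 159 times and C1qa by 7.96, 7.36, 11.3, 9.2 and 6.23 times. The 21 endothelial markers summed to 394, 455, 412, 381 and 395 CPM, but Bsg, a surface protein that neurons and glia also make, carried 54.5% of this. Without Bsg 175, 212, 209.7, 157 and 174 CPM were left. Egfl7, a secreted vessel protein, had 34.7 ± 8.89 CPM and the VEGF receptor Flt1 19 ± 3.61 CPM. Pericyte and smooth muscle markers summed to 113, 141, 94.3, 100.1 and 103 CPM, led by Rgs5 (39.9 ± 7.99 CPM) and Vtn (38.7 ± 11.5 CPM).

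Genes of the brain's surfaces and cavities were carried by a few members. Ptgds, the prostaglandin D synthase of leptomeninges, choroid plexus and oligodendrocytes, had 2371, 2531, 1798, 2524 and 4071 CPM and made up 91% of the meningeal list. WT_PBS 5 was far above the others. The rest of that list, collagen and matrix genes led by Col1a2 at 44.6 ± 16.5 CPM and Dcn at 42.2 ± 10. CPM, summed to 266, 300.05, 174, 274 and 294 CPM, lowest in WT_PBS 3. In the choroid plexus list Ttr, the thyroid hormone carrier of cerebrospinal fluid, had 679.8, 1279, 951, 1298 and 1117 CPM and Enpp2, a secreted lysophospholipase, 422, 567, 394, 523 and 505 CPM. The other members together had 69.4, 91.6, 49.8, 106 and 103 CPM. Ependymal markers summed to 55.2 to 97.8 CPM.

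Blood-borne cells contributed little apart from haemoglobin. The 4 adult globin genes Hba-a1, Hba-a2, Hbb-bs and Hbb-bt summed to 696, 1123, 487, 678 and 1235 CPM, highest in WT_PBS 5 and WT_PBS 2 and lowest in WT_PBS 3. The alpha genes, and the beta genes, are near-identical to each other, so that only their sum is firm. The neutrophil list summed to 22, 15, 3.51, 17.3 and 20.1 CPM. Its leading member S100a8, a calcium-binding protein of neutrophils, had 12.7, 3.75, 0, 6.86 and 10.5 CPM, with no read in WT_PBS 3, and S100a9 had 6.56, 6.43, 3.51, 6.86 and 8.05 CPM. Ly6g, Elane and Retnlg of this list had no read. Its other members Ngp, Camp, Ltf and Mpo, looked up after the values had been seen, had means of 1.54, 0.848, 0.0807 and 0.0805 CPM. In the lymphocyte list Ighm had 9.2 ± 3.0 CPM and 5 of 12 genes, among them Cd3d and Ms4a1, had no read in any library. The macrophage list of the brain's borders summed to 8.79 to 19.3 CPM, led by Mrc1 at 5.17 ± 1.89 CPM.

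**Figure D1:**
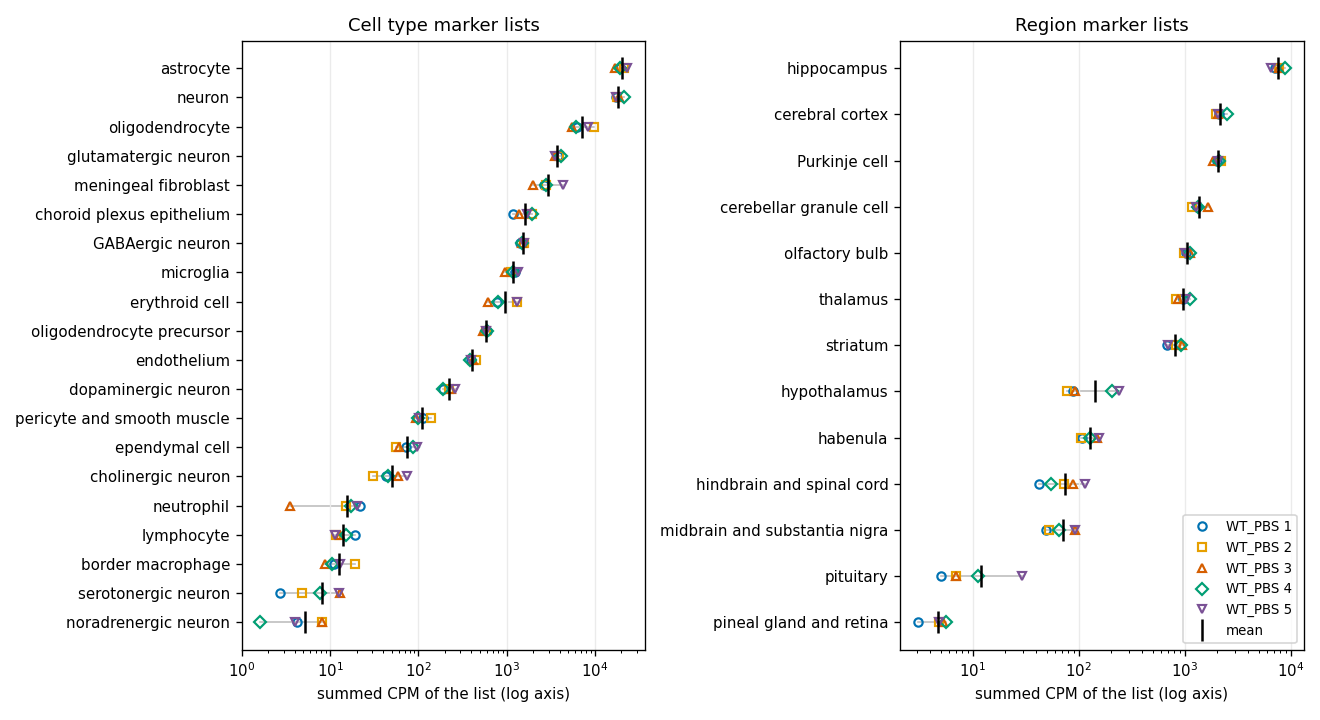
Summed CPM of each marker list in each of the 5 libraries (log axis), for cell types on the left and regions on the right. Open symbols are libraries, grey lines their range and black ticks the mean of 5. The neuron list (17354 to 21162 CPM) and the astrocyte list (16943 to 23216 CPM) overlap, the hypothalamus list is split with WT_PBS 4 and WT_PBS 5 above the other libraries, and the neutrophil list is lowest in WT_PBS 3.

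Markers of the large brain regions were found in every library at similar levels. The cerebral cortex list summed to 2120.4, 1963, 2056, 2486 and 2053 CPM, and all 15 members reached the floor everywhere. It was led by the transcription factors Mef2c at 999 ± 128 CPM and Bcl11b at 189 ± 38.6 CPM and by Rasgrf2, a marker of upper-layer neurons, at 184 ± 28.5 CPM. The striatum list summed to 682, 826, 939.6, 918 and 699 CPM, 1.38-fold between the extremes. Ppp1r1b, the dopamine-regulated phosphatase inhibitor of striatal projection neurons, had 133, 223, 216, 178 and 139 CPM, the opioid peptide gene Penk 82.9, 113, 91.4, 73.8 and 54 CPM and Six3 78.8 ± 20.4 CPM. WT_PBS 2 was highest for Ppp1r1b and Penk, but WT_PBS 3 was highest for Six3. The dopamine receptor Drd1 had 48.8 ± 10.5 CPM and Drd2 15.2 ± 3.14 CPM, a pair looked up after the values had been seen, and Drd1 exceeded Drd2 in all 5 libraries.

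In the hippocampus list Nrgn, which cortex and striatum also express, made up 92.9%. The regulators Zbtb20 and Prox1, which mark hippocampal neurons and the dentate gyrus, had 379, 411, 381, 377 and 344 CPM and 47, 34.3, 53.3, 60.9 and 47.9 CPM. The thalamus list summed to 968, 835, 875, 1118 and 1022 CPM and was led by Rora at 311 ± 31.6 CPM, Tcf7l2 at 121, 72.9, 105, 177 and 114 CPM and Calb2 at 115 ± 23.3 CPM. WT_PBS 4 was highest and WT_PBS 2 lowest for the list and for Tcf7l2. Rora is also expressed in Purkinje cells and Calb2 in interneurons and granule cells.

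Most genes listed as markers of cerebellar neurons reached the floor in all 5 libraries. The Purkinje cell list had 2019, 2207, 1839, 2114 and 2086 CPM (CV 6.69%), with the calcium channel Itpr1 at 420.2 ± 51.3 CPM and the calmodulin-binding peptide Pcp4 at 331, 426, 271, 262 and 349 CPM. The granule cell list had 1319.9, 1173, 1654, 1335 and 1293 CPM. Slc17a7, which cortex and hippocampus also express, made up 44% of it. Of the 15 members of the list 12 were highest in WT_PBS 3. Among them were the transcription factor Zic1 at 127, 111, 218, 139 and 177 CPM and the synaptic organiser Cbln3 at 128, 76.6, 169, 96.8 and 108 CPM. Zic1 shares exon positions with Zic4 and is uncertain for that reason. The list's mean was 1355 CPM with WT_PBS 3 and 1280.2 CPM without it.

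The olfactory bulb list had 979 to 1132 CPM, mostly from Slc17a7, Meis2 (207 ± 20.8 CPM) and Calb2, which other regions share. The midbrain list had 49.7, 52.5, 93.1, 65 and 93 CPM, led by Ddc, which decarboxylates the precursors of dopamine and serotonin, at 26.5 ± 7.39 CPM. WT_PBS 3 and WT_PBS 5 had the highest sums of this list. Habenula genes other than Calb2 summed to 13.8 CPM on average, and the pineal and retinal list summed to 3.08 to 5.65 CPM, most of it from Sag (3.28 ± 1.19 CPM), with Crx, Asmt and Aanat at 0 reads.

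Apart from the pituitary list, of far fewer reads, the hypothalamus list had the largest CV of the region lists, with 89.1, 78.2, 92, 206 and 241 CPM (CV 54%). The genes Oxt (oxytocin), Avp (vasopressin), Pmch (melanin-concentrating hormone) and Hcrt (orexin) are made by small groups of hypothalamic neurons, and these 4 were picked out after their values had been seen. Oxt had 4.63, 0, 1.76, 43.6 and 41.9 CPM and Avp 0, 0.536, 0, 18.2 and 23.8 CPM. Pmch had 4.63, 0.536, 3.51, 32.3 and 30.6 CPM and Hcrt 4.24, 0, 0.586, 30.7 and 12.9 CPM. In all 4 genes WT_PBS 4 and WT_PBS 5 lay above the other 3 libraries without overlap, and their sum was 13.5, 1.07, 5.86, 125 and 109 CPM. Leaving out WT_PBS 4 lowered the mean of Hcrt from 9.68 to 4.43 CPM and that of Oxt from 18.4 to 12.1 CPM, and leaving out WT_PBS 5 lowered that of Avp from 8.49 to 4.67 CPM. The sum of the other 14 genes of the hypothalamus list did not show this split, at 75.6, 77.2, 86.1, 81.1 and 132 CPM. It was led by Lhx1 at 17.7, 12.9, 34, 16.1 and 30.6 CPM, the stress peptide Crh at 20.4, 15.5, 16.4, 21.8 and 31 CPM and Cartpt at 10.8, 17.1, 12.3, 22.6 and 39.5 CPM. In Crh and Cartpt WT_PBS 4 and WT_PBS 5 were also above the other 3 libraries, but WT_PBS 4 only by a small margin. For Crh it had 21.8 CPM against 20.4 CPM in WT_PBS 1, too close to tell apart, and for Cartpt 22.6 CPM against 17.1 CPM in WT_PBS 2. Pomc, made in the arcuate nucleus and pituitary, had 3.47, 5.89, 0.586, 2.82 and 2.82 CPM.

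Pituitary RNA was scarce. Gh, the growth hormone gene of the anterior pituitary, had 0, 0.536, 2.93, 6.86 and 25.4 CPM, and in WT_PBS 5 this was 63 reads. Without WT_PBS 5 the mean of Gh was 2.58 CPM, against 7.14 CPM with it. Of the other pituitary hormone genes of the list, Prl, Cga and Fshb had no read. Tshb and Lhb, looked up after the values had been seen, had means of 0.590 and 0.0807 CPM. Hox genes, which are expressed in hindbrain and spinal cord and not in forebrain, summed over all clusters to 9, 38, 47, 12 and 104 reads, or 3.47, 20.4, 27.5, 4.84 and 41.9 CPM. Hoxb5 had 0.386, 5.36, 7.03, 1.21 and 12.5 CPM and Hoxa5, looked up after the values had been seen, 0, 3.75, 1.76, 1.21 and 5.23 CPM. WT_PBS 1 and WT_PBS 4 were lowest in the Hox sum and WT_PBS 5 highest, and without WT_PBS 5 the mean of Hoxb5 fell from 5.29 to 3.50 CPM. The glycine receptor Glra1, the leading member of the hindbrain list, ranged less, with 35.5, 49.8, 60.9, 45.6 and 61.2 CPM. WT_PBS 4, high in hypothalamic peptides, was low in Hox genes, and WT_PBS 5 was high in both.

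**Figure D2:**
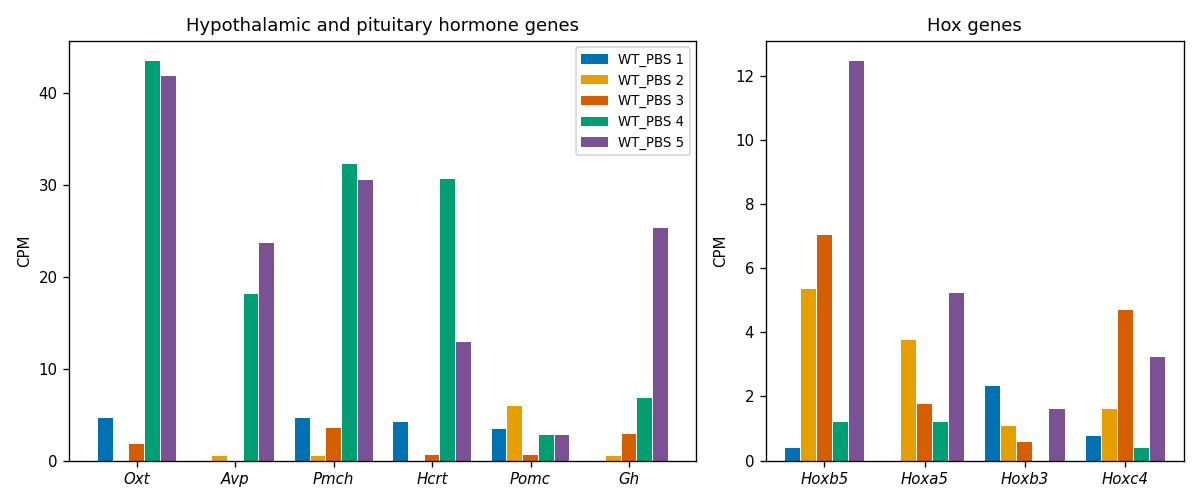
CPM of hypothalamic and pituitary hormone genes (left) and of 4 Hox genes (right), 1 bar per library from WT_PBS 1 to WT_PBS 5 in each group. Oxt, Avp, Pmch and Hcrt are high in WT_PBS 4 and WT_PBS 5, Gh is highest in WT_PBS 5, and Hoxb5 is highest in WT_PBS 5 and lowest in WT_PBS 1.

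The 3 highest genes of the neuropeptide list varied less than Oxt, Avp, Pmch and Hcrt. Those 4 were picked because they differed and are less abundant, where counting error is larger. Not every other peptide gene was steady, as Penk had 83 ± 21.8 CPM. Cck, a peptide of cortical neurons, had 525, 539, 545, 508 and 518 CPM, with a CV of 2.87%. The granule proteins Chgb and Scg2 had 409.6 ± 37.8 and 273 ± 50.3 CPM. The summed neuropeptide list of 27 genes was 1875, 1987, 2023, 2188 and 2018 CPM (CV 5.56%), of which Cck, Chgb and Scg2 made up 59.9%.

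In the list of newborn and dividing cells 10 of 15 genes reached the floor in every library. Its 3 highest members, which mature neurons also keep, made up 89.9% of the sum. Whether their reads came from newborn or mature cells was not tested. These 3, Tubb2b, Stmn1 and Sox11, had 616 ± 94.2, 565 ± 65.5 and 89.3 ± 8.18 CPM. Of the other members Dcx and Top2a, looked up after the values had been seen, had means of 36.6 and 6.63 CPM. The proliferation gene Mki67, looked up after the values had been seen, had 1.16, 0.536, 2.34, 0.807 and 2.82 CPM, and Ccna2, a cyclin of dividing cells, had no read.

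Immediate early genes, which neurons switch on within minutes of activity, were higher in WT_PBS 3 for most members. The list of 22 genes summed to 750.005, 682, 974, 931 and 806 CPM and 14 of 22 members were highest in WT_PBS 3. The share of all genes that were highest in WT_PBS 3 was not computed. The 3 members of highest mean did not share 1 pattern: Jund had 185, 175, 182, 316 and 283 CPM, the synaptic scaffold gene Homer1 162, 131, 111, 156 and 119.99 CPM and Egr1 77.5, 75.5, 165, 129.5 and 81.3 CPM. The difference was plain in 5 less abundant members, picked out after the values had been seen. Fos had 2.31, 0.536, 21.7, 3.63 and 2.82 CPM, Npas4 1.93, 0, 21.7, 3.23 and 0 CPM and Nr4a1 3.47, 1.61, 12.9, 2.42 and 0 CPM, all 3 transcription factors. Arc, a synaptic protein, had 4.63, 5.36, 26.9, 1.21 and 6.04 CPM and the transcription factor Egr4 7.71, 11.8, 37.5, 7.26 and 8.86 CPM. In each of the 5 genes WT_PBS 3 was above all other libraries, and their sum was 20.1, 19.3, 121, 17.8 and 17.7 CPM. Without WT_PBS 3 the mean of Fos was 2.32 CPM and that of Npas4 1.29 CPM, against 6.19 and 5.37 CPM with it. The means of Arc, Nr4a1 and Egr4 were 8.84, 4.08 and 14.6 CPM with it and 4.31, 1.87 and 8.91 CPM without it. The other 17 members summed to 729.95, 663, 853, 913 and 788 CPM, where WT_PBS 4 was highest.

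Promoters of many immediate early genes, Fos among them, are known to carry the cAMP response element (CRE), which the activity-regulated factor CREB binds. Promoter sequences of 4 members that were highest in WT_PBS 3 are shown so that this element can be seen. They are the 250 bases before the start site from RefSeq (GRCm38.p6), 5′ to 3′ on the gene's strand, for Fos (chr12:85473640-85473889, plus), Npas4 (chr19:4989972-4990221, minus), Nr4a1 (chr15:101266596-101266845, plus) and Egr4 (chr6:85513590-85513839, minus). Capitals mark the CRE core, TGACG or its complement CGTCA.
Fos: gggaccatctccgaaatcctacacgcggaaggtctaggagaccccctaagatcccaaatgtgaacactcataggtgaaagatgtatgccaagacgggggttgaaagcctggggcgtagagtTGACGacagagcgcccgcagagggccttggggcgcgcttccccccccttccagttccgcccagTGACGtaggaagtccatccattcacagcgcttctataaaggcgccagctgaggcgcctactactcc
Npas4: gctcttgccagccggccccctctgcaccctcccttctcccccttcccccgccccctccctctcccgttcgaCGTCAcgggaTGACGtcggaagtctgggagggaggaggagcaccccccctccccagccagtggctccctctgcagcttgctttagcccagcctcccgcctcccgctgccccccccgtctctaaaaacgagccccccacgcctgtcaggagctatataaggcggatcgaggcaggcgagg
Nr4a1: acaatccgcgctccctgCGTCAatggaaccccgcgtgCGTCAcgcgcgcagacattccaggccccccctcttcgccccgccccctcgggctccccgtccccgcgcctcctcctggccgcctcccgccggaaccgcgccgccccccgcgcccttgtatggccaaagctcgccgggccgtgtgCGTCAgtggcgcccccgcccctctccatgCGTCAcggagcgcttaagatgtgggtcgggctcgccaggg
Egr4: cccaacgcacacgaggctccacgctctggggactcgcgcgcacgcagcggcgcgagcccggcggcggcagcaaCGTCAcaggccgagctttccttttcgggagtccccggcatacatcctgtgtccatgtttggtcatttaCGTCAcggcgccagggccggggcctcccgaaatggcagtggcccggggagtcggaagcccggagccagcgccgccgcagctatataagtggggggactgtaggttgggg
The Nr4a1 window holds 4 such cores and each of the other windows 2. In windows from 250 bases before to 50 after the start, 12 of the 18 immediate early genes with a RefSeq promoter (66.7%) held TGACG on either strand, against 21% of all 27025 promoters and 33.6% of the 11876 promoters with at least 10 CG pairs. The full palindromic CRE, which is the core TGACG followed by TCA, was found in Dusp1 and Btg2 only, 2 of 18, and in 1.88% of all promoters. A match describes the letters of the window and is no evidence that a factor binds there.

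Several non-coding RNAs, most of them known to stay in the nucleus, were in excess in WT_PBS 3. Meg3, an imprinted transcript of neurons, had 4801, 2706, 11683, 4174 and 3749.9 CPM and Malat1, a transcript of nuclear speckles, 4747, 4411, 10132, 3833 and 3722 CPM. Snhg11, a host of small nucleolar RNAs, had 908, 558, 2851, 756 and 871 CPM and Miat 41.3, 13.9, 139, 30.7 and 37.4 CPM. Neat1, the scaffold of nuclear paraspeckles, had 45.1, 46.1, 114, 33.9 and 60.8 CPM. Snhg11, Miat and Neat1 were named for their large CV, that is because their libraries differed. In all 5 genes WT_PBS 3 was above the other libraries, and together they took 10542, 7735, 24918, 8827 and 8441 CPM. Their means without WT_PBS 3 were 3858 CPM for Meg3, 4178 for Malat1, 773 for Snhg11, 30.8 for Miat and 46.5 for Neat1. Long non-coding genes other than Gm42418 made up 1.64, 1.3, 2.93, 1.45 and 1.41% of all counts.

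These 5 genes were among the 10 with the largest CV of the 3458 genes at 50 CPM or more. For Snhg11, Miat and Neat1 this rank is how they were chosen and no further observation. Miat led with 94.3%, followed by Snhg11 with 79%, Meg3 with 66%, Ccnt2 with 55.4%, Neat1 with 52.6%, Gramd1b with 51.5%, Malat1 and Rsrp1 with 50.2%, Gapdh with 49.9% and Rasl11b with 49.1%. WT_PBS 3 was highest in 9 of these 10 and WT_PBS 2 in Gapdh. Ccnt2, the cyclin of the transcription elongation factor P-TEFb, had 47, 35.4, 103, 31.1 and 45.9 CPM and the sterol carrier gene Gramd1b 126, 118, 277, 105 and 97.8 CPM. Rsrp1 had 44, 36.4, 94.9, 40.3 and 35.4 CPM and Rasl11b 82.9, 144, 190.4, 65 and 71.7 CPM. Among the 40 genes of largest CV, WT_PBS 3 was highest in 23, WT_PBS 2 in 13, WT_PBS 5 in 3, WT_PBS 4 in 1 and WT_PBS 1 in none. WT_PBS 3 had the smallest total of the 5. With every library thinned to that total the mean of Meg3 was 5430.01 CPM and that of Fos 6.09 CPM. Random thinning keeps the CPM of a gene the same on average, so these means say nothing about depth. The part of depth in the differences of WT_PBS 3 was not tested. WT_PBS 3 was also lowest in the astrocyte, oligodendrocyte, microglial and haemoglobin sums given above, and their part in its differences was not tested.

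WT_PBS 2 stood out through myelin genes, described above, and through other genes, several of them of respiration and translation, which were picked out after the values had been seen. Cox7c, a subunit of cytochrome c oxidase, had 281, 470.4, 262, 159.8 and 184 CPM and Ndufa1, a subunit of complex I, 61.3, 117, 55.7, 54.5 and 56.4 CPM. Tmsb4x, the actin-binding thymosin beta 4, had 695, 1011, 598, 359 and 469 CPM and Rps27a, a ribosomal protein fused to ubiquitin, 109, 203, 102, 57.7 and 122 CPM. WT_PBS 2 was highest in all 4 genes, and it also had the largest mitochondrial share, whose part in these levels was not tested.

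**Figure D3:**
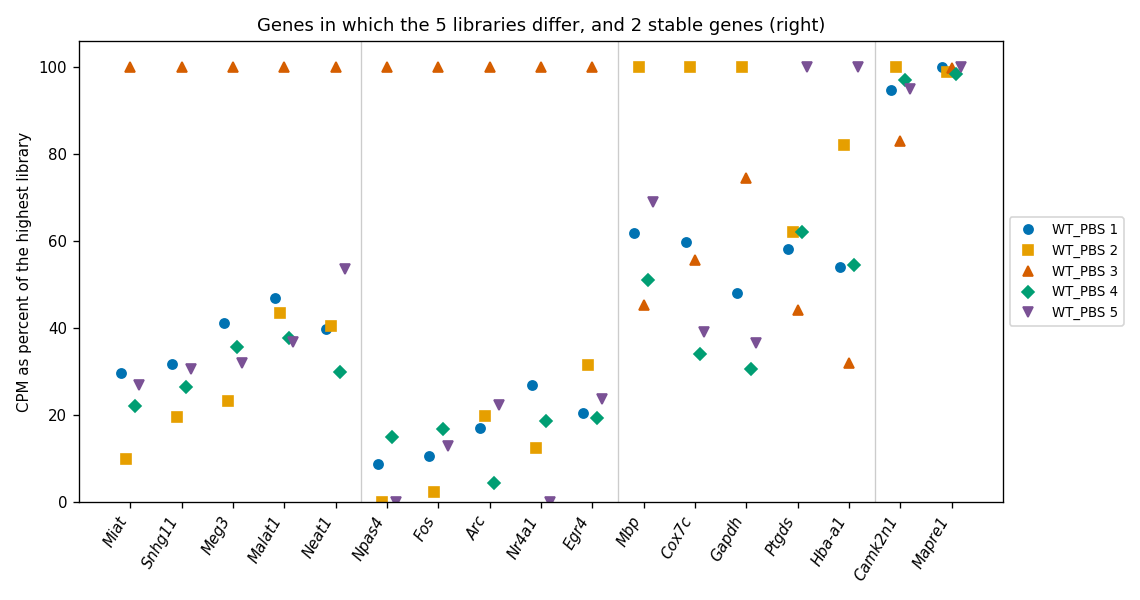
CPM of 17 genes in each library as a percentage of the highest library of that gene. The non-coding RNAs Miat to Neat1 and the immediate early genes Npas4 to Egr4 are highest in WT_PBS 3, Mbp to Gapdh in WT_PBS 2 and Ptgds and Hba-a1 in WT_PBS 5, while Camk2n1 and Mapre1 on the right stay closer together.

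At the other end, some genes were almost constant. The median CV of the 3458 genes at 50 CPM or more was 14.7%, where counting error alone gives a median of 6.56%, and the CV was under 10% in 699 genes (20.2%) and over 40% in 31. In 185 genes (5.35%) the CV was no larger than counting error. The smallest of all belonged to Mapre1, a protein of growing microtubule ends, at 184, 182, 184, 181 and 184 CPM. Rundc3a had 256, 255, 262, 261 and 251 CPM, the phosphatase Ppm1a 288, 284, 299, 295 and 285 CPM and the axonal adhesion protein Cntn1 436, 439.9, 425, 451 and 427 CPM. Efr3a had 109 ± 2.23 CPM, Nlgn1, a synaptic adhesion protein, 116 ± 2.47 CPM and Snap91, a clathrin adaptor of synaptic vesicles, 111 ± 2.71 CPM. BC004004, Gpatch4 and Hmgn3 had 60.2 ± 0.965, 67.7 ± 1.65 and 71.6 ± 1.75 CPM. The CV of each of these 10 genes was below its own counting error, so the data do not rank them among themselves. Over 9642 genes kept by edgeR's filter the common biological coefficient of variation was 0.182, and it was 0.161 without WT_PBS 3.

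**Figure D4:**
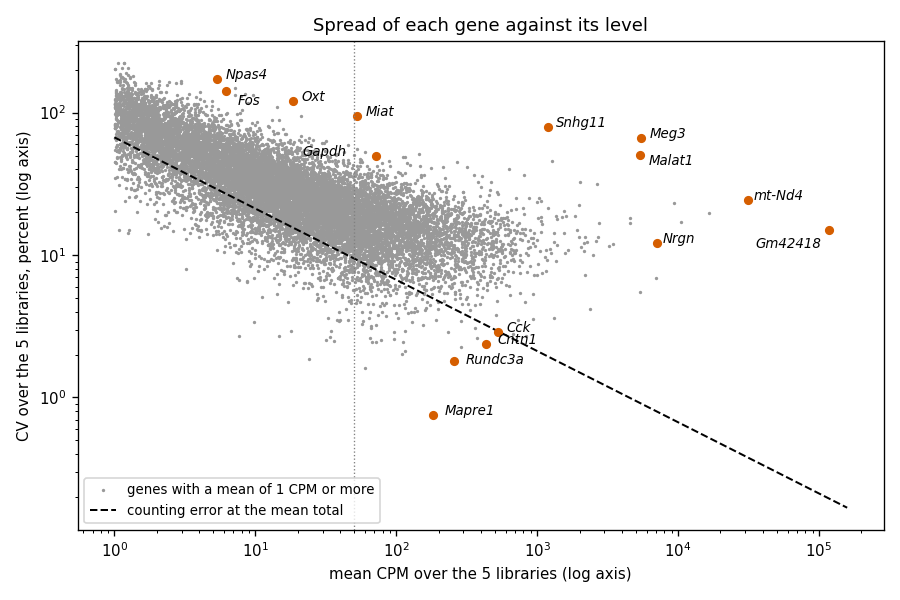
CV over the 5 libraries against mean CPM for each gene with a mean of at least 1 CPM (both axes log). Grey points are genes, the dashed line is the counting error expected at the mean library total, the dotted line marks 50 CPM and orange points are named genes. Snhg11, Meg3 and Malat1 lie well above genes of like level, and Mapre1, Rundc3a and Cntn1 lie below the counting line.

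Several genes used as references were low or unstable. Gapdh, a glycolytic enzyme, had only 59.8, 124, 92.6, 37.9 and 45.5 CPM, and Actb exceeded it by 56, 24.4, 34.8, 109 and 77 times. Exons of Gapdh overlap those of Iffo1 on the other strand, so its value is also uncertain without a strand setting. Ppia (cyclophilin A) had 43.6, 58.9, 28.7, 38.7 and 63.6 CPM, Actg1, the other cytoplasmic actin, 6.56, 1.61, 1.76, 10.1 and 6.04 CPM, Eno1 (an enolase) 29.3, 31.6, 65, 14.9 and 17.3 CPM and Pgk1 (a glycolytic kinase) 5.01, 3.75, 0.586, 3.23 and 2.01 CPM. Ywhaz and Sdha were higher and steadier, with 494 ± 49.2 and 199 ± 15.3 CPM. The mitochondrial genes were just as uneven: mt-Co1 had 2697 ± 359 CPM, whereas mt-Co2 had 7.21 ± 2.39, mt-Co3 14.3 ± 5.02, mt-Atp6 9.82 ± 2.5 and mt-Nd3 2.17 ± 1.31 CPM, and mt-Nd4l had no read. The low mitochondrial genes were looked up after their values had been seen, as were Actg1, Ppia, Pgk1 and Eno1.

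Reads that match several genes can be lost in counting, so the annotated transcripts (GENCODE M21) were searched for copies. Of the 50-base words in the last 300 bases of the transcripts of Gapdh, 78.3% occurred in transcripts of other genes elsewhere in the genome, in 175 such genes, 168 of which are not in the count table. The share was 79.2% for Ppia, 86.9% for Eno1, 42.9% for Actg1, 100% for mt-Co2, 99.6% for mt-Co3, 98.8% for mt-Atp6, 98.8% for mt-Nd3 and 98.8% for mt-Nd4l. It was 0% for mt-Nd4 and 12.4% for Actb, which were abundant. But it was also 100% for mt-Co1, at 2697 CPM, and 0% for Pgk1, at 2.92 CPM, so the share does not go with the level in every gene. Among 700 genes searched 606 (86.6%) shared no such word. Levels of genes with near-identical copies are therefore uncertain here.

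In several gene families 1 member held the larger part of the reads. Near-identical tubulin genes share sequence, and their single shares are uncertain. Camk2a had 81.4% ± 2.9 of the CaMKII subunits, Camk2b 13.6%, Camk2d 3.0% and Camk2g 2.09%. Among sodium pump beta subunits Atp1b1 had 88.1%, Atp1b2 9.79% and Atp1b3 2.12%.

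Among metabolic enzymes and transporters the forms known from brain held most reads. Eno2, the neuronal enolase, had 94.9% ± 2.46, Eno1 4.46% and the muscle form Eno3 0.615%. The Eno1 share is uncertain, since 86.9% of its words occur in other genes, against 0% for Eno2. Ckb, the brain creatine kinase, had 91% ± 3.44, the mitochondrial Ckmt1 8.89% and the muscle form Ckm 0.0621%. Of the glucose transporters the neuronal Slc2a3 had 68.9%, Slc2a1 of vessels and glia 28.2%, and the liver and insulin-responsive forms Slc2a2 and Slc2a4 0.757% and 2.15%.

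Among structural and carrier proteins the balance was more even. Tuba1a had 39.3% ± 2.3 of the alpha-tubulins, Tuba1b 31.8% ± 4.33 and Tuba4a 27.9% ± 4.22. Of the beta-tubulins Tubb2b had 28.2%, Tubb5 22.2%, the neuronal Tubb3 14.5%, Tubb2a 13.5%, Tubb4b 13.3% and Tubb4a 8.26%. Stmn3, Stmn1, Stmn2 and Stmn4 had 35.7%, 26.8%, 23.5% and 14% of the stathmins, where 41.2% of the words of Stmn1 occur in 1 other gene. Of 7 genes of the 14-3-3 family Ywhae had 28% and the epithelial Sfn 0.0813%. Apoe had 63.8%, Clu 28.3% and Apod 7.42% of the apolipoproteins, and Fabp3, Fabp5 and Fabp7 had 50.8%, 41.3% and 7.07% of the fatty acid binding proteins. Snap47 had 28% and Snap23 0.559% beside Snap25 with 60.3% in the list of SNAP proteins. That list also counts the clathrin adaptor Snap91, at 10.2%, which lowers the other shares.

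**Figure D5:**
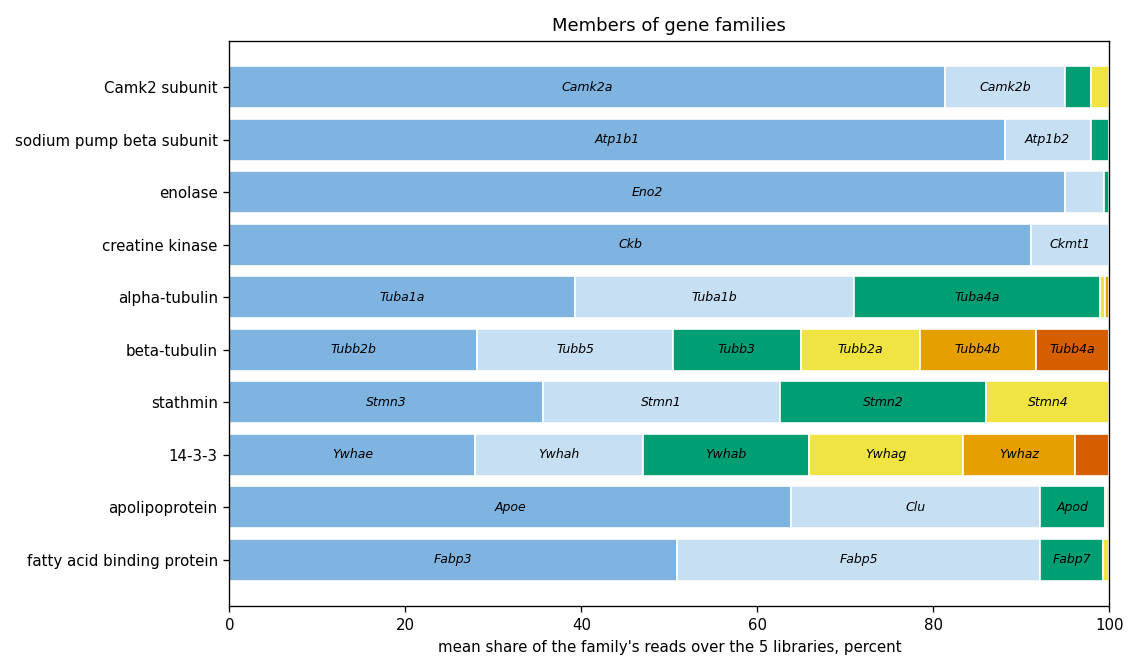
Mean share of each member in the reads of its gene family, in percent, over the 5 libraries, with the symbols of the larger members. Camk2a (81.4%), Atp1b1 (88.1%), Eno2 (94.9%) and Ckb (91%) hold most of their families' reads, whereas tubulins, stathmins and 14-3-3 proteins are spread over several genes.

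Markers of other organs had means of at most 18.6 CPM. Of 69 such genes, with Ttr and Sox2 left out because choroid plexus and neural stem cells express them, 25 had no read (11661 of all 30386 genes had none), 22 more were under 1 CPM and 22 were at 1 CPM or above. Their median was 0.239 CPM and 12 reached the floor in every library. The highest was Alb, the albumin gene of liver, at 14.3, 25.2, 26.4, 11.3 and 16.1 CPM, followed in the liver list by Ahsg at 10.03, 8.57, 21.1, 8.47 and 8.86 CPM and Apoa2 at 9.75 ± 3.49 CPM. Muscle actin Acta1 had 13.5 ± 1.35 CPM, Tnnt2 6.03 ± 3.53 CPM and the giant sarcomere protein Ttn 5.32 ± 0.577 CPM. The pancreatic Cpa1 and Prss2, the kidney's Slc34a1 and Slc22a12, the lung's Scgb1a1, Sftpa1 and Scgb3a2 and the embryonic Pou5f1, Nanog and Lin28a had no read in 11128691.

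Receptors for odours and pheromones were rare as well. Of 1450 receptor genes of the olfactory, vomeronasal and trace amine families 234 had a read, with 1139 reads in all, and the highest, Olfr432, picked out for that, had 7.74 CPM. Of the T-box genes Tbr1 of cortical neurons had 47.9 ± 14.1 CPM and Eomes 7.64 ± 2.33 CPM. Tbx1, the gene altered elsewhere in the study, had 3 reads, all in WT_PBS 4, which is 0.242 CPM on average. Xist, the RNA that silences 1 X chromosome in female cells, had no read in any library, whereas the Y-linked genes, looked up after the values had been seen, did: Ddx3y had 104, 103, 87.3, 91.6 and 120.4 CPM, Uty 25.1, 26.3, 23.4, 17.8 and 13.3 CPM, Kdm5d 24.7, 13.9, 22.3, 25 and 9.66 CPM and Eif2s3y 10.4, 8.04, 4.1, 7.67 and 5.64 CPM. All 5 libraries carried Y-linked RNA at overlapping levels.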

How the data were processed

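The authors deposited raw read counts per gene for 15 brain libraries, of which the 5 columns labelled wild type and PBS were used; all columns of the table were matched to samples. Libraries were 3′ libraries of the QuantSeq type, per the labels' protocols. Reads were handled with STAR, HTSeq and edgeR on mm10, per the submitters' processing notes. For the versions of these tools, the annotation, the strand setting and any filters: not given in the sources used here. In the labels both a Qiazol and an RNeasy Plus extraction are named without saying which library had which.

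CPM were computed as counts divided by the library total, in Python 3.11.15 with numpy 2.4.6 and pandas 2.3.3, for 30386 genes. Coordinates and exon overlaps came from GENCODE M21 (GRCm38), which matched 30348 genes (99.87%). The totals were 1707033 to 2593316 counts, and intervals and floors cover counting error only. Counting error of a gene was 100 divided by the square root of its mean reads, in percent. The common biological coefficient of variation was estimated in edgeR 4.0.16 (R 4.3.3) with TMM factors after filterByExpr, and the calculations were tested on simulated data. No test between groups was made.

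Marker lists came from textbook knowledge. The members and lists were chosen with earlier results of these data known. Genes named were the 15 of highest mean CPM, the 3 highest members of each list with Snap25, Slc1a2, Cldn5 and C1qa, up to 3 members per list without reads, the 10 genes of largest and of smallest CV at a mean of 50 CPM or more, and the members of gene families, of which those of largest share are printed. Values of some genes covered by it are not reported here. Genes named outside this rule are marked in the text as looked up or picked out after their values had been seen. Itgam stands under 2 gene identifiers, summed in the microglia list. Genes whose exons overlap a gene with more than 10% as many reads are uncertain. Besides Csf1r, Zic1 and Gapdh, these include Fabp3 and the pair mt-Atp6 and mt-Co3. Alternatives were a denominator without Gm42418 and mitochondrial genes, TMM effective library sizes, thinning to the smallest total, a floor of 10 reads, a minimum of 10 CPM for the CV, no filter for the dispersion and leaving out each library.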

Additional observations from a re-analysis of the deposited data

Results flagged for a closer look

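For 32 of the lists and 222 of the genes given in the report, the library farthest from the others was compared with the range of the 5 by Dixon's ratio (critical value 0.71 for 5 values). In 24 of the 254 results (9.45%) 1 library stood apart. Chance alone gives about 1 in 20, and many of these genes were named because their libraries differ, so the share is a description. In all 24 the outlying library was high: WT_PBS 3 in 17, WT_PBS 2 in 3, WT_PBS 4 in 2 and WT_PBS 5 in 2. Over all 3458 genes with a mean of at least 50 CPM, 198 (5.73%) exceeded the critical value. High outliers among these numbered 5, 11, 69, 25 and 20 in WT_PBS 1 to WT_PBS 5. Low outliers numbered 7, 22, 23, 5 and 11.

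In WT_PBS 3 the outlying non-coding RNAs were Meg3 at 11683 CPM, Malat1 at 10132, Snhg11 at 2851 and Miat at 139 CPM. The immediate early genes were Fos and Npas4 at 21.7 CPM each, Arc at 26.9, Nr4a1 at 12.9 and Egr4 at 37.5 CPM. Further genes of large CV were Ccnt2 at 103 CPM, Gramd1b at 277 and Rsrp1 at 94.9 CPM. Members of gene families and lists were Camk2d at 118 CPM, Slc2a3 at 58.6, Eno3 at 9.96, Cldn5 at 9.37 and Ahsg at 21.1 CPM. In WT_PBS 2 the mitochondrially encoded list stood at 95811 CPM, Ndufa1 at 117 and Tubb2b at 779 CPM. In WT_PBS 4 Mef2c stood at 1220.1 CPM and Tbx1 at 1.21 CPM, which was 3 reads. In WT_PBS 5 Gfap stood at 221 CPM and Gh at 25.4 CPM.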

How the results depend on the processing

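Levels are relative to each library's total, which Gm42418 and mitochondrial RNA fill by 17.2 to 21.5%. Leaving these out of the denominator raised the other levels 1.213-fold to 1.2503-fold, and genes at 1000 CPM or more went from 63 to 88. TMM library sizes moved levels 0.9646-fold to 1.0162-fold. Genes with at least 10 reads in every library numbered 9367, against 11611 with at least 3, and 11248 reached 3 reads after thinning to the smallest total. The median CV was 19.5% at a minimum of 10 CPM, against 14.7% at 50 CPM, and 13.1 to 15.47% with 1 library left out. The common biological coefficient of variation was 0.161 to 0.193 with 1 library left out, 0.177 after thinning and 0.213 without a filter. Counts of genes and shares of Gm42418 and mitochondrial RNA stayed within 1.5-fold or 1 SD under each alternative run for them. Leaving out 1 library moved the mean over 1.5-fold for 7 genes without WT_PBS 3 (Arc, Egr4, Fos, Miat, Npas4, Nr4a1 and Snhg11), for 3 without WT_PBS 4 (Hcrt, Oxt and Tbx1) and for 3 without WT_PBS 5 (Gh, Avp and Hoxb5). Genes under about 2 CPM rest on a few reads per library and their spread cannot be read at this depth. No paired analysis was possible because no groups were compared.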
